A study of Mus musculus with 38 samples.

Results

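Collagens are triple helical matrix proteins assembled from 3 chains, and each chain is the product of its own gene. The collagen genes described here are the 44 genes, of 55487 in the count table, whose symbol has the form Col, a number, a and a chain number. The rule uses the symbol and no measured value. The levels of these genes were followed across all 10 groups and 38 libraries of the 3 experiments. Collagens I, III and V form the banded fibrils of the kidney interstitium, the compartment between the tubules that carries fibroblasts and capillaries. Collagen IV forms the sheet-like network of basement membranes, collagen VI forms beaded filaments around cells, and the FACIT collagens (fibril-associated collagens with interrupted triple helices) sit on fibril surfaces. The glomerular basement membrane (GBM) is the filtration barrier of the glomerulus. Its mature network consists of the α3, α4 and α5 chains of collagen IV, which podocytes secrete, whereas the α1 and α2 chains occur in nearly every basement membrane of the body.

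Bulk RNA was sequenced from kidney tissue of mice in 2 experiments (per the study's methods, a piece of the pars intermedia from each mouse) and from precision-cut kidney slices (PCKS) in the third, to measure the renal response to recombinant human fibroblast growth factor 23 (FGF23), a bone hormone that acts on phosphate handling by the kidney. In the first experiment, male C57BL/6JRj mice were 10 weeks old at kidney collection. Anti-GBM mice had been immunised with sheep IgG in adjuvant and then given nephrotoxic serum, healthy mice had been given phosphate-buffered saline, and both received vehicle (4 healthy, 4 anti-GBM) or FGF23 (3 healthy, 3 anti-GBM) in 6 injections, each FGF23 injection holding 1 µg. In the second experiment, female BALB/c mice, also 10 weeks old, had received a single injection of Adriamycin, a toxin that damages podocytes, or saline. They were then given 1 injection of vehicle or FGF23 and examined 24 h later, with 4 kidneys in each of the 4 groups. In the third experiment, slices were cut from kidneys of male DBA/2J mice fed adenine, a model of tubulointerstitial disease, and kept in culture with vehicle (4 libraries) or FGF23 (4 libraries). The mice were 23 weeks old. All slice libraries carry the adenine disease and no disease-free slice was sequenced. The labels give 1 h of FGF23 treatment for the slices and the study's text a longer time, so the duration is uncertain. Every anti-GBM mouse had immunisation, adjuvant and serum and no healthy mouse had any of them, so their effects cannot be told apart. The 3 experiments also differ in strain, sex, disease and FGF23 schedule.

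Total counts ran from 13704248 to 23630210 per library in the anti-GBM experiment, from 15665050 to 27583911 in the Adriamycin experiment and from 11186925 to 16254987 in the slices. Levels are given in CPM, a gene's count relative to the total of its library, scaled within each experiment by trimmed mean of M-values (TMM) factors, so levels in different experiments are set side by side without a test. Libraries are named after the count table's columns (NTS1 to NTS16 for the anti-GBM experiment, Ad1 to Ad16 for the Adriamycin experiment). The column of 1 of the 3 anti-GBM FGF23 libraries joins library number 14 to the name NTS4 and was read as NTS14, so its group is less certain than that of the others. Differences were tested by edgeR's quasi-likelihood test over all genes that passed the filter on low counts, and a gene was called where the Benjamini-Hochberg adjusted p was below 0.05. Kidney markers were abundant in every kidney library: the 6 proximal tubule genes summed to between 6163 and 14315 CPM in the anti-GBM experiment and to between 8492 and 11197 CPM in the Adriamycin experiment. In the slices the same 6 genes summed to only 264.7 to 653.2 CPM, while the 7 podocyte genes summed to 981.4 to 1705 CPM.

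The 4 short stretches of mouse genome, from RefSeq on build GRCm38.p6, show how differently the collagen genes begin. They are shown because Col3a1 and Col5a1, whose products meet in one fibril, moved together in anti-GBM kidneys, and because the type IV genes lie in pairs that start back to back. Col3a1 (ENSMUSG00000026043, chr1:45311538-45349706, plus strand) and Col5a1 (ENSMUSG00000026837, chr2:27886425-28039514, plus strand) are each preceded by the 250 bases given first. The third stretch is the whole intergenic gap between the start of Col4a4 (chr1:82448423-82586849, minus strand) and the start of Col4a3 (chr1:82586921-82722059, plus strand), and the fourth is the 22 bases in which Col4a1 (chr8:11198423-11312826, minus strand) and Col4a2 (chr8:11312805-11449287, plus strand) overlap at their starts. All are written 5′ to 3′ on the plus strand, and capitals mark the motif TATAAA, the CCAAT box and the motif GGGCGG, each read on either strand.
Col3a1 upstream, chr1:45311288-45311537: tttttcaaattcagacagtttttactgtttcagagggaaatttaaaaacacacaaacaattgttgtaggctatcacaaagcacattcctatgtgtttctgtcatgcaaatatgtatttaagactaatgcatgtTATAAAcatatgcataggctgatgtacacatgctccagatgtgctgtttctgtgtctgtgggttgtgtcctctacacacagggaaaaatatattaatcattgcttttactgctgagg
Col5a1 upstream, chr2:27886175-27886424: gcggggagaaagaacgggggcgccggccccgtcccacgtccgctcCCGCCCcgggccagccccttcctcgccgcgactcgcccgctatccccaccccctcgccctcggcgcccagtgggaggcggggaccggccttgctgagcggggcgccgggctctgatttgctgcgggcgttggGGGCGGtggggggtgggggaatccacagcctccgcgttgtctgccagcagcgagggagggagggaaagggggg
Col4a4-Col4a3 gap, chr1:82586850-82586920: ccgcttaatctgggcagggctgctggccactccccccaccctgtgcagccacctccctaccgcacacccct
Col4a1-Col4a2 overlap, chr8:11312805-11312826: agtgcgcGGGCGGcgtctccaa

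The Col3a1 stretch holds TATAAA and no GGGCGG, and the Col5a1 stretch holds GGGCGG on both strands and no TATAAA. Among 38 such windows of 250 bases, belonging to 35 collagen genes, GGGCGG was present in 22 (57.9%), against 32.7% of all 32851 windows in the RefSeq table. CCAAT was present in 34.2% of the collagen windows and 33.8% of all windows, and TATAAA in 13.2% and 12.4%. These letter matches are descriptions of the sequence and not binding sites. The third back-to-back pair, Col4a6 and Col4a5 on chromosome X, starts 1308 bases apart. Col3a1 and Col5a2 also neighbour each other on chromosome 1, tail to tail and 24614 bases apart, and Col6a2 and Col6a1 lie in the same direction on chromosome 10.

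In kidneys of healthy C57BL/6 mice given vehicle, basement membrane collagens were the most abundant members. Per kilobase of exon, Col4a1 had the highest level at 45.5 CPM per kb, followed by Col4a2 at 37.2, Col4a4 at 31.5, Col18a1 at 29.96, Col4a3 at 29.9 and Col14a1 at 12.2. The 6 type IV genes made up 60.0% of the summed collagen CPM, and the fibril genes Col1a1, Col1a2 and Col3a1 made up 11.1%. In healthy BALB/c kidneys Col4a1 again came first at 34.8 CPM per kb, ahead of Col18a1 at 30.98, and the type IV share was 52.3%. In the vehicle slices of adenine kidneys Col4a1 stood at 161 CPM per kb, Col3a1 at 124, Col18a1 at 109 and Col1a1 at 104. There the type IV share was 32.9% and Col1a1, Col1a2 and Col3a1 together reached 33.7%.

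The summed level of the 44 genes was 2133 ± 78.4 CPM (SD, n = 4) in healthy C57BL/6 kidneys with vehicle and 1998 ± 131 (n = 3) with FGF23. It was 3879 ± 491 (n = 4) in anti-GBM kidneys with vehicle and 4965 ± 641 (n = 3) with FGF23. No anti-GBM library overlapped a healthy one: the lowest anti-GBM sum was 3402 CPM and the highest healthy sum 2234 CPM. In the Adriamycin experiment the sums were 1885 ± 109 and 2042 ± 292 in healthy kidneys with vehicle and FGF23, and 1766 ± 199 and 1776 ± 223 in Adriamycin kidneys (n = 4 each). In the slices they were 6897 ± 731 with vehicle and 6158 ± 697 with FGF23 (n = 4 each).

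**Figure D1:**
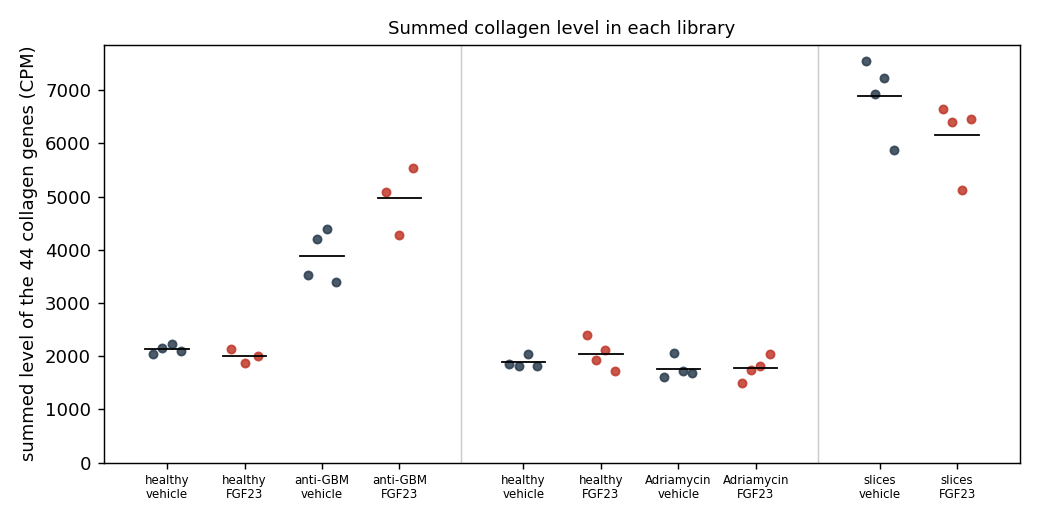
Summed level of the 44 collagen genes in each library (vertical axis, CPM scaled within each of the 3 experiments), by group (horizontal axis). Points are libraries, dark for vehicle and red for FGF23, and lines are group means. Anti-GBM libraries all lie above the healthy C57BL/6 libraries, the 4 groups of the Adriamycin experiment overlap, and the slice libraries lie between 5125 and 7554 CPM on their own scale.

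Not every member could be tested. In the anti-GBM experiment 36 of the 44 passed the filter on low counts, in the Adriamycin experiment 34 and in the slices 33, with 30 passing in all 3 experiments. Col2a1, Col9a1, Col9a2, Col10a1 and Col22a1 passed in none. Among the other members, Col9a3, Col11a1 and Col25a1 did not pass in the anti-GBM experiment. The highest count of any member that did not pass was 23 in a library. In the anti-GBM experiment, Col17a1 and Col28a1 passed only through the diseased kidneys. In the Adriamycin experiment Col4a6 passed only through the diseased kidneys and Col28a1 only through the healthy ones.

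Anti-GBM disease was compared with health first in mice given vehicle. Here 24 of the 36 tested members were called (66.7%), 21 higher and 3 lower in anti-GBM kidneys. The background was high, because 39.8% of all 15859 tested genes were called, 19.4% higher and 20.4% lower. The median log2 fold change of the tested members was 0.95, beside −0.01 over all tested genes. The higher members included 7 of 9 tested fibrillar genes, 3 of 6 type VI genes, both short chain genes, both multiplexins (collagens that carry large glycan chains at basement membranes), 2 of 5 FACIT genes and 2 of 3 transmembrane genes. Of the 6 type IV genes 2 were higher and 2 lower. The 24 include Col17a1, which passed the filter only through the diseased kidneys and is given as a description. In bulk tissue, a larger number of cells that make a collagen and more collagen RNA in each cell cannot be told apart.

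Col1a1 and Col1a2 encode the 2 chains of collagen I, the main fibril collagen of scar tissue. Col1a1 (chr11:94936224-94953042, plus strand) was at 48.4, 48.8, 54.9 and 68.1 CPM in the 4 healthy vehicle kidneys and at 234, 244, 343 and 370 CPM in the 4 anti-GBM vehicle kidneys. The lowest anti-GBM library was thus well above the highest healthy one, and the log2 fold change was 2.44 ± 0.19 (SE, adjusted p = 1.74e-06). Col1a2 was at 85.3, 88.9, 101 and 109 CPM in healthy kidneys and at 277, 283, 377 and 400 CPM in anti-GBM kidneys. It rose by 1.80 ± 0.14 on the log2 scale (adjusted p = 1.6e-06). The ratio of Col1a1 to Col1a2 counts was 0.572 ± 0.065 (SD, n = 4) in healthy kidneys and 0.888 ± 0.0661 in anti-GBM kidneys, without overlap between the groups.

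Col3a1, the single chain of collagen III, which forms mixed fibrils with collagen I, was at 69.7, 78.9, 79.1 and 111 CPM in healthy kidneys. In anti-GBM kidneys it was at 267, 305, 508 and 513 CPM, and the groups did not overlap. Its log2 fold change was 2.23 ± 0.25 (adjusted p = 2.57e-05). The 3 collagen V genes, whose product initiates and limits fibril growth, moved the same way. Col5a1 was at 17.8 to 22.6 CPM in healthy and 41.97 to 68.3 CPM in anti-GBM kidneys, with a log2 fold change of 1.34. Col5a3 went from 3.31 to 4.49 CPM in healthy kidneys to 8.08 to 14.6 CPM, a log2 fold change of 1.60. Col5a2 rose least, by 0.56 on the log2 scale (adjusted p = 0.00905), and its ranges of 29.99 to 47.2 and 41.4 to 61.8 CPM overlapped.

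Col11a2, best known from cartilage, also rose by 0.97 on the log2 scale (adjusted p = 0.0335), at levels of only 0.250 to 0.679 CPM in healthy and 0.643 to 1.28 CPM in anti-GBM kidneys. The ranges overlapped by 1 library on each side, and the call was lost when NTS3, NTS4 or NTS5 was left out, under DESeq2, with no filter on low counts and in a fit of only the groups compared. The cartilage markers Acan and Matn1 were at 0 in every healthy C57BL/6 library, and Matn1 was at 0 in every anti-GBM vehicle library. Sox9, a cartilage marker that injured tubules also make, rose by 4.77 on the log2 scale, and Hapln1 fell by 1.77. Col27a1, with a log2 fold change of 0.53, and Col24a1, with −0.04, did not pass the test.

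**Figure D2:**
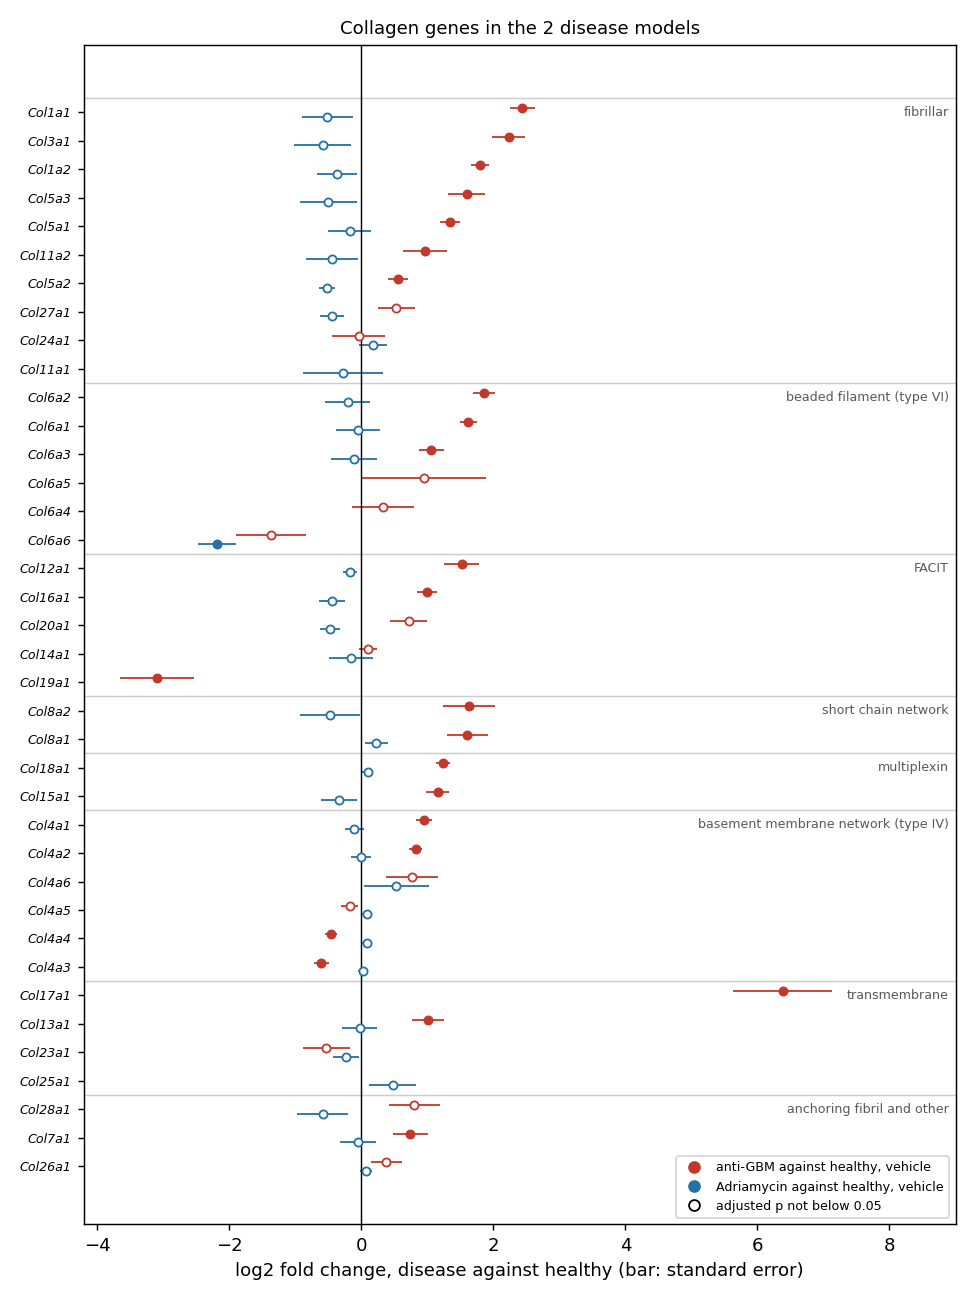
Log2 fold change of each tested collagen gene (rows, grouped by structural class) in diseased against healthy kidneys given vehicle, with bars for the standard error. Red points are the anti-GBM and blue points the Adriamycin comparison, and filled points have an adjusted p below 0.05. Col17a1 passed the filter only through the diseased kidneys, so its point is a description. Most fibrillar, type VI, short chain and multiplexin genes lie to the right in red only, Col4a3 and Col4a4 lie to the left in red, and Col6a6 is the filled blue point.

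Collagen VI links cells to the surrounding matrix, and its usual trimer is made from Col6a1, Col6a2 and Col6a3. Col6a1 was at 25.0, 27.4, 34.6 and 37.8 CPM in healthy kidneys and at 84.8, 96.4, 98.2 and 105 CPM in anti-GBM kidneys. The 2 groups lay far apart, with a log2 fold change of 1.62 ± 0.13 (adjusted p = 2.11e-06). Col6a2 rose by 1.86 and Col6a3 by 1.06 on the log2 scale. The Col6a3 to Col6a1 count ratio was 0.837 ± 0.104 in healthy and 0.558 ± 0.138 in anti-GBM kidneys, and the ranges of 0.709 to 0.940 and 0.462 to 0.763 overlapped. The 3 alternative chains Col6a4, Col6a5 and Col6a6 did not pass the test, and Col6a6 had a log2 fold change of −1.37 (adjusted p = 0.0547).

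Of the 6 type IV genes, Col4a1 and Col4a2 rose, Col4a3 and Col4a4 fell, and Col4a5 and Col4a6 did not pass the test. Col4a1 was at 324, 326, 353 and 355 CPM in healthy kidneys and at 562, 605, 691 and 778 CPM in anti-GBM kidneys, and it rose by 0.96 ± 0.12 on the log2 scale (adjusted p = 6.25e-05). Col4a2, its partner in the ubiquitous α1 and α2 network, rose by 0.82 ± 0.09 (adjusted p = 3.09e-05), from 240 to 254 CPM to 380 to 498 CPM. Col4a3, the α3 chain of the mature GBM and the chain that carries the human anti-GBM autoantigen, was at 262, 287, 292 and 351 CPM in healthy kidneys and at 186, 188, 204 and 205 CPM in anti-GBM kidneys. It fell by 0.60 ± 0.11 on the log2 scale (adjusted p = 0.001).

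Col4a4, the α4 chain that begins 71 bases from Col4a3, was at 326, 329, 341 and 341 CPM in healthy and at 213, 221, 243 and 296 CPM in anti-GBM kidneys. It fell by 0.46 ± 0.09 on the log2 scale (adjusted p = 0.00137), and the groups of both genes were separate. Col4a5, the third chain of that network, had a log2 fold change of −0.18 ± 0.13 and Col4a6 one of 0.77 ± 0.40, and neither passed the test. The Col4a1 to Col4a3 count ratio was 1.15 ± 0.11 (SD, n = 4) in healthy and 3.37 ± 0.471 in anti-GBM kidneys, with ranges of 1.01 to 1.24 and 2.75 to 3.79. Of the 7 podocyte markers 1 was called higher and none lower, beside 19.4% and 20.4% of all tested genes. Their sum was 481.4 to 693.3 CPM in healthy and 575.8 to 650.4 CPM in anti-GBM vehicle kidneys. The part of podocyte number in the Col4a3 and Col4a4 values was not tested. Col4a3 shares 563 exon bases (5.65% of its exons) with an overlapping gene on the opposite strand, C430014B12Rik, and the counting is not stated to use strand.

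**Figure D3:**
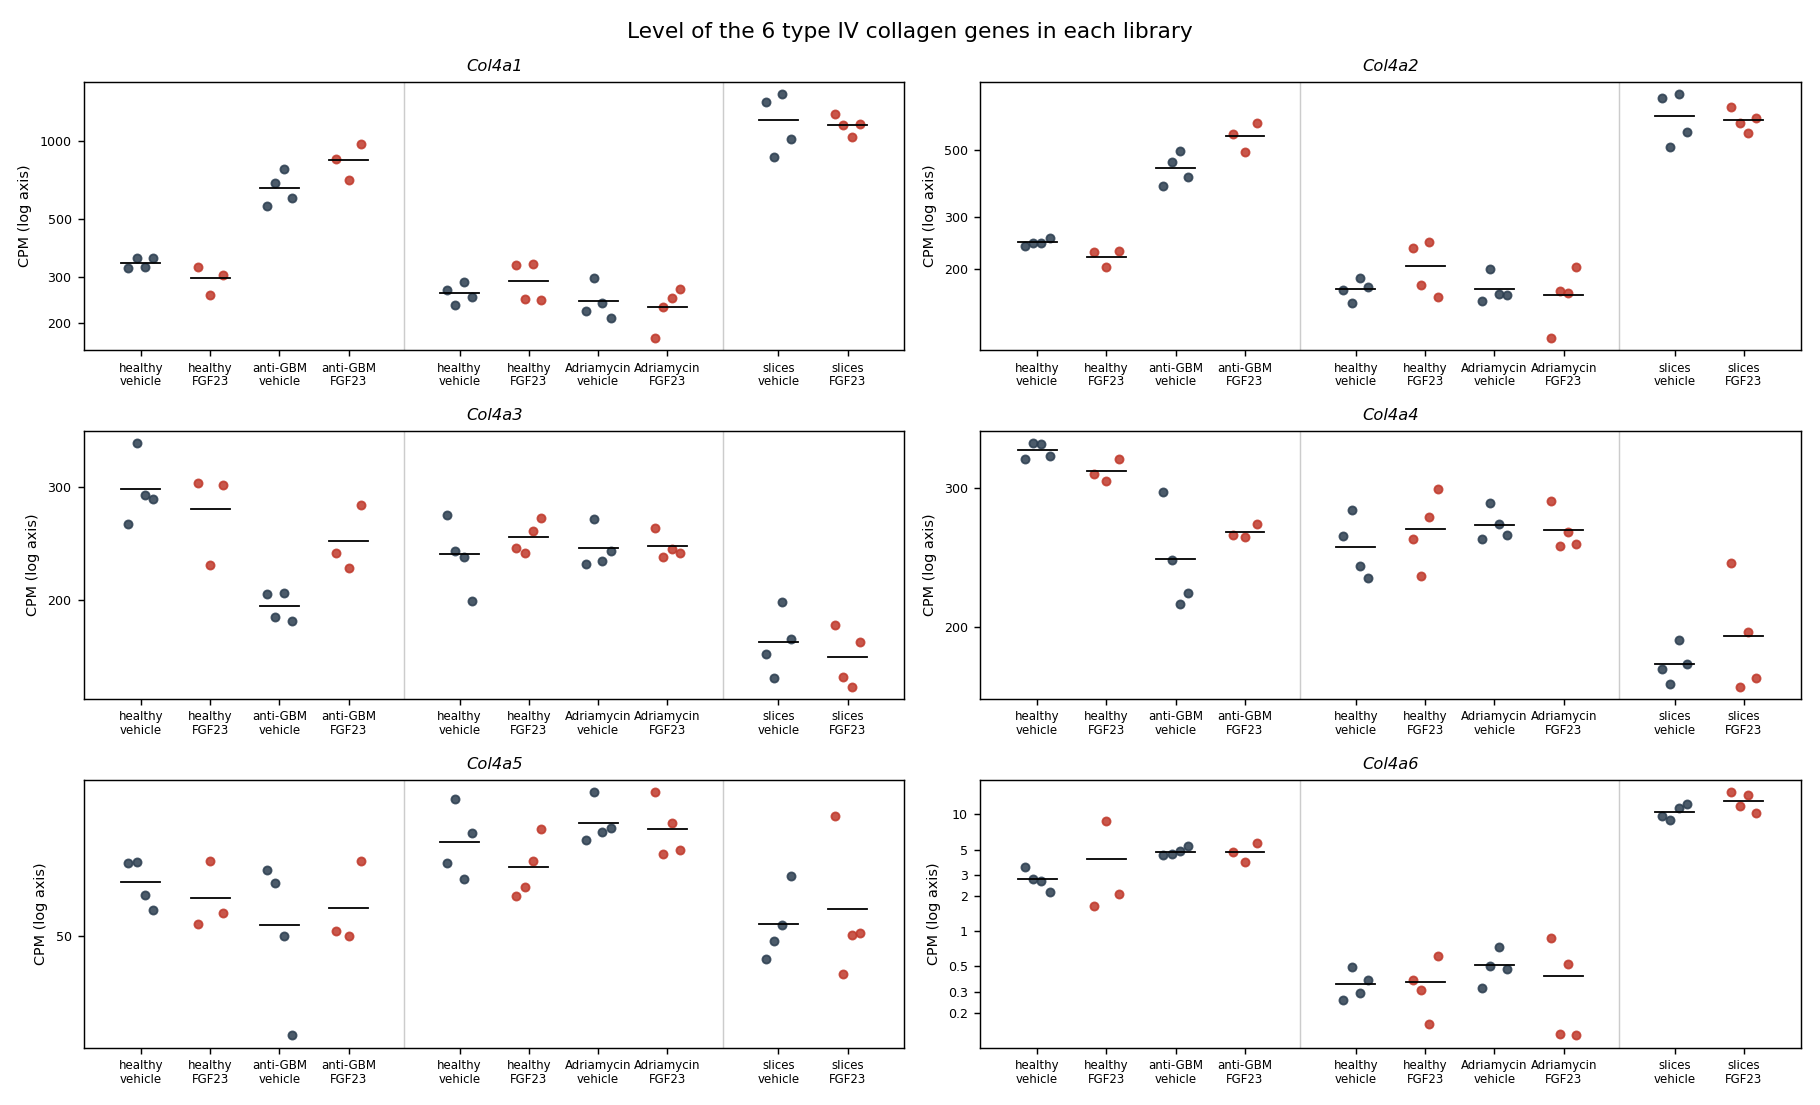
Level of the 6 type IV collagen genes (vertical axes, CPM on a log scale, scaled within each experiment) in each library, by group. Points are libraries, dark for vehicle and red for FGF23, and lines are group means. In the anti-GBM vehicle group Col4a1 and Col4a2 lie above and Col4a3 and Col4a4 below the healthy vehicle libraries, while the 4 groups of the Adriamycin experiment overlap in all 6 panels.

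Both multiplexins, which release the antiangiogenic fragments endostatin and restin when cut, rose in anti-GBM kidneys. Col18a1 was at 205, 208, 210 and 218 CPM in healthy and at 407, 505, 520 and 558 CPM in anti-GBM kidneys, with a log2 fold change of 1.24 ± 0.10 (adjusted p = 2.55e-06). Col15a1 was at 43.5 to 55.7 CPM in healthy and at 88.1 to 132 CPM in anti-GBM kidneys, with a log2 fold change of 1.16 ± 0.17 (adjusted p = 0.000202). The short chain genes Col8a1 and Col8a2, which form hexagonal lattices under endothelium, rose by 1.61 and 1.63 on the log2 scale. Col8a2 was the rarer, at 0.331 to 1.55 CPM in healthy and 1.44 to 3.68 CPM in anti-GBM kidneys, and its ranges overlapped.

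The FACIT genes did not move as a block. Col12a1, whose product bridges fibrils under load, rose by 1.52 ± 0.27 on the log2 scale, from 6.37, 7.47, 7.95 and 12.1 CPM in healthy kidneys to 13.5, 18.4, 28.9 and 36.4 CPM. Col16a1 rose by 0.99 ± 0.15 on the log2 scale. Col14a1, a FACIT gene at much higher level, was at 77.3 to 101 CPM in healthy and 77.0 to 98.0 CPM in anti-GBM vehicle kidneys, and its log2 fold change of 0.10 ± 0.14 did not pass the test. Col19a1 fell by 3.09 ± 0.56 (adjusted p = 0.000824), but from 0.795 to 3.44 CPM down to 0.0720 to 0.579 CPM, which is 185 counts against 19 in the 4 libraries of each group.

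Among transmembrane collagens, Col13a1 rose by 1.01 ± 0.25 on the log2 scale, from 1.39 to 1.60 CPM to 2.61 to 3.38 CPM. Col17a1, the hemidesmosome collagen of epithelia, was nearly absent from healthy vehicle kidneys, with 2 counts in all 4 libraries together and 0 in 2 of them. It was at 2.09, 2.38, 3.22 and 3.49 CPM in anti-GBM kidneys, a total of 197 counts. The ratio of its summed levels was 106 (95% exact interval 29.02 to 883, counting error only). It passed the filter only through the diseased kidneys, so its log2 fold change and adjusted p are not given here. Its place among the 24 called members is a description. Col7a1, the anchoring fibril collagen, rose by 0.74 ± 0.27 on the log2 scale (adjusted p = 0.0396) with overlapping ranges, and its call was lost without NTS2, NTS3, NTS7 or NTS8.

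**Figure D4:**
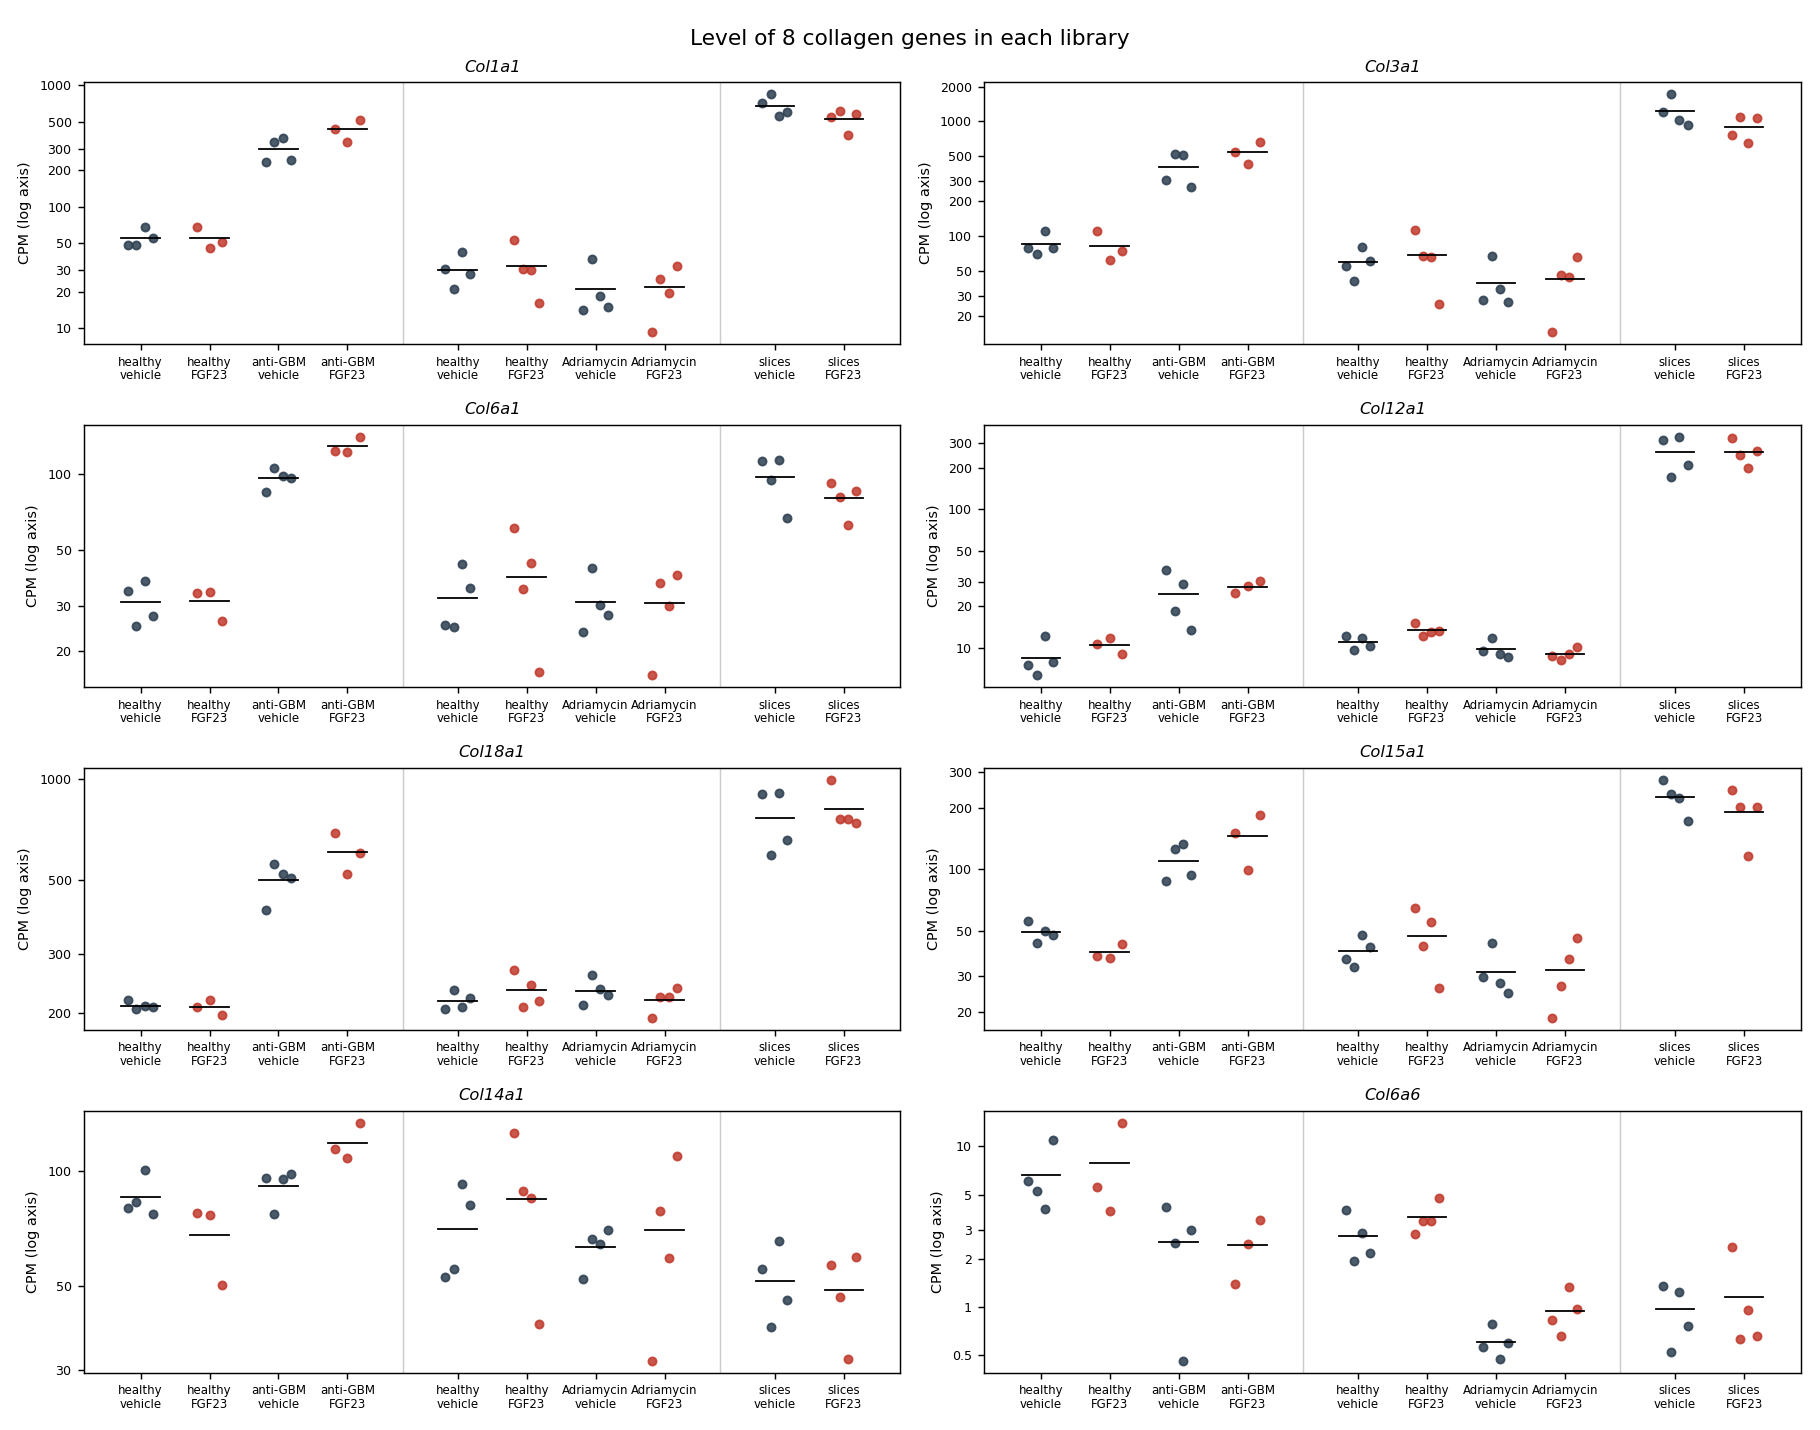
Level of 8 collagen genes (vertical axes, CPM on a log scale, scaled within each experiment) in each library, by group. Points are libraries, dark for vehicle and red for FGF23, and lines are group means. Col1a1, Col3a1, Col6a1, Col12a1, Col15a1 and Col18a1 are higher in every anti-GBM vehicle than in every healthy vehicle library, Col14a1 is not, and Col6a6 is lower in the Adriamycin groups than in their healthy groups.

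Markers of the cells that make and surround fibrils were followed in the same comparison. There 19.4% of all tested genes were called higher and 20.4% lower. Of 10 fibroblast and pericyte markers, 9 rose, and their sum was 309.8 to 405.5 CPM in healthy and 636.8 to 733.3 CPM in anti-GBM vehicle kidneys. Of 7 leukocyte markers, 5 rose and 1 fell, with sums of 70.0 to 101 and 123 to 188 CPM. Of 6 proximal tubule markers, 4 fell, and 2 of 6 endothelial markers fell. Among 5 mesangial markers 2 rose and 1 fell, and none of 5 distal nephron markers was called. The part of these shifts in the collagen values was not tested.

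The proteins that build, cut and bind collagen were followed as lists chosen by function. Their counts stand beside 19.4% of all tested genes called higher and 20.4% called lower. Of 31 tested biosynthesis genes (prolyl and lysyl hydroxylases, chaperones, procollagen proteinases and lysyl oxidases), 17 rose and 4 fell, with a median log2 fold change of 0.46. The called genes with the highest values were the crosslinking enzyme Lox at 2.69, the procollagen N-proteinase Adamts2 at 1.83 and the lysyl oxidase Loxl2 at 1.53, whereas Tll1, at −0.90, Mia3, at −0.37, and Colgalt2, at −0.36, fell. Among 14 tested genes of the collagen breakdown list 10 rose and 2 fell. This list also holds the Timp genes, which encode metalloproteinase inhibitors, so its counts give no direction of breakdown. Its summed level was 2689 to 3506 CPM in healthy and 2104 to 2798 CPM in anti-GBM vehicle kidneys. The neutrophil collagenase Mmp8 rose by 5.07 on the log2 scale, the metalloproteinase inhibitor Timp1 by 4.92 and Mmp3 by 2.91, while Mmp13 fell by 1.02 and Timp3 by 0.55. Of 10 tested collagen receptor genes 8 rose, led by the endocytic receptor Mrc1 (1.76), the integrin subunit Itga2 (1.21) and the leukocyte receptor Lair1 (1.13). Of 16 fibril-associated matrix genes 12 rose, led by Tnc at 3.22, Mfap4 at 2.80 and Mfap5 at 2.13.

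The same disease comparison among FGF23-treated mice set other libraries against each other. It came from the same fit, which shares its filter, scaling and estimate of the spread, so the 2 comparisons are not fully independent. Here 20 of 36 tested members were called (55.6%), all of them higher in anti-GBM kidneys, beside 27.2% of all tested genes (14.5% higher and 12.7% lower). The 20 include Col17a1, which passed the filter only through the diseased kidneys and is given as a description. The median log2 fold change of the members was 0.97 and that of all genes −0.02. Col1a1 was at 46.0, 50.9 and 68.0 CPM in the 3 healthy and at 343, 440 and 515 CPM in the 3 anti-GBM kidneys, with a log2 fold change of 2.98 ± 0.22 (adjusted p = 3.04e-06). Col3a1, at 61.2, 73.4 and 110 CPM in healthy and 427, 540 and 663 CPM in anti-GBM kidneys, rose by 2.74 ± 0.30. Without NTS14, the library of uncertain column name, 18 members were called, all higher, beside 3510 of all genes. Col8a2 and Col13a1 then lost their call.

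The comparisons with vehicle and with FGF23 had 19 called members in common. They called 39.8% and 27.2% of all tested genes, and the overlap over all genes was not counted. The 19 therefore cannot be read as particular to the collagens. In the FGF23-treated mice Col4a1 rose by 1.51, Col4a2 by 1.34, Col15a1 by 1.89, Col18a1 by 1.54, Col1a2 by 2.17, Col5a1 by 1.99, Col5a2 by 1.13 and Col8a1 by 1.97 on the log2 scale. Col6a1 rose by 2.03, Col6a2 by 2.26 and Col6a3 by 1.69. The other members called in both were Col5a3 (1.35), Col8a2 (1.46), Col12a1 (1.39), Col13a1 (1.00), Col16a1 (0.93) and Col17a1. Col17a1 passed the filter only through the diseased kidneys and is a description. The ratio of its summed levels was 17.7 (95% exact interval 9.67 to 35.9, counting error only).

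Called with vehicle and not with FGF23 were Col4a3, Col4a4, Col7a1, Col11a2 and Col19a1. With FGF23, Col4a3 was at 226, 302 and 304 CPM in healthy and 224, 237 and 281 CPM in anti-GBM kidneys, with a log2 fold change of −0.17 ± 0.13 (adjusted p = 0.378). Col4a4 had one of −0.26 ± 0.10 (adjusted p = 0.0828). Col14a1 was called with FGF23 and not with vehicle, at 50.3, 76.5 and 77.4 CPM in healthy and 108, 114 and 134 CPM in anti-GBM kidneys (log2 fold change 0.80 ± 0.16, adjusted p = 0.00209). None of these differences between the comparisons passed its own test, as described for the interaction.

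In anti-GBM against healthy kidneys of FGF23-treated mice, 17 of 31 biosynthesis genes rose and 1 fell (Tmem38b, by 0.32), with Lox at 2.36, Loxl2 at 2.14 and Adamts2 at 1.86 on the log2 scale. Of 14 genes of the breakdown list 8 rose, led by the inhibitor Timp1 (4.12), Mmp2 (2.64) and Mmp3 (2.06). The summed level of that list was 2620 to 3327 CPM in the healthy and 2371 to 2557 CPM in the anti-GBM kidneys. Of 10 receptor genes 9 rose, led by Lair1 (2.01), Mrc1 (1.67) and Itga11 (1.62). Of 16 fibril-associated genes 8 rose, led by Mfap4 (2.48), Fn1 (2.46) and Thbs2 (2.10). The fibroblast and pericyte sum was 381.5 to 415.3 CPM in the healthy and 739.6 to 808.4 CPM in the anti-GBM kidneys, with 6 of the 10 markers called higher. Leukocyte markers were called higher in 4 of 7 cases and lower in 1. Over all tested genes 14.5% were called higher and 12.7% lower in this comparison.

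FGF23 itself was compared with vehicle in 5 settings, and edgeR called no collagen gene in any of them. DESeq2 called none in 4 of them and 1 in anti-GBM kidneys. In healthy C57BL/6 kidneys 0% of all genes were called, and the members' median log2 fold change was 0.00. An unadjusted p below 0.05 was found for 5 of 36 members, beside 4.34% of all genes. In anti-GBM kidneys 0.24% of all genes were called. There 29 of 36 members had a positive log2 fold change, with a median of 0.28, beside 49.7% positive among all tested genes. An unadjusted p below 0.05 was found for 14 of the 36 members, 13 of them higher. Across all genes 12.6% had such a p. The smallest adjusted p of a member was 0.243, for Col4a2, which was at 493, 565 and 619 CPM with FGF23 and at 380, 406, 457 and 498 CPM with vehicle (log2 fold change 0.36 ± 0.10). The Col4a2 groups overlapped by 1 library on each side. Col4a2 was the gene that DESeq2 called, with a log2 fold change of 0.37 (adjusted p = 0.0458).

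Col1a1 had a log2 fold change of 0.54 ± 0.19 with FGF23 in anti-GBM kidneys (adjusted p = 0.33), and its levels of 343 to 515 CPM overlapped the 234 to 370 CPM of the vehicle kidneys. Col1a2 stood at 0.47 ± 0.14 (adjusted p = 0.284), Col4a3 at 0.33 ± 0.12 (adjusted p = 0.337) and Col6a1 at 0.42 ± 0.13 (adjusted p = 0.31). Col6a1 was at 122, 123 and 140 CPM with FGF23 and at 84.8 to 105 CPM with vehicle, and Col4a3 at 224, 237 and 281 CPM against 186 to 205 CPM. The groups of both genes did not overlap, yet neither was called. The test of whether FGF23 acted differently in anti-GBM and healthy kidneys (the interaction) called none of the 36 members by edgeR or DESeq2, while 0.0315% of all genes were called. Its smallest member adjusted p was 0.365, again for Col4a2, at a log2 difference of 0.52. In that test 9 of the 36 members had an unadjusted p below 0.05, beside 8.30% of all genes. The FGF23 comparison and the disease comparison with FGF23 share the anti-GBM FGF23 libraries.

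**Figure D5:**
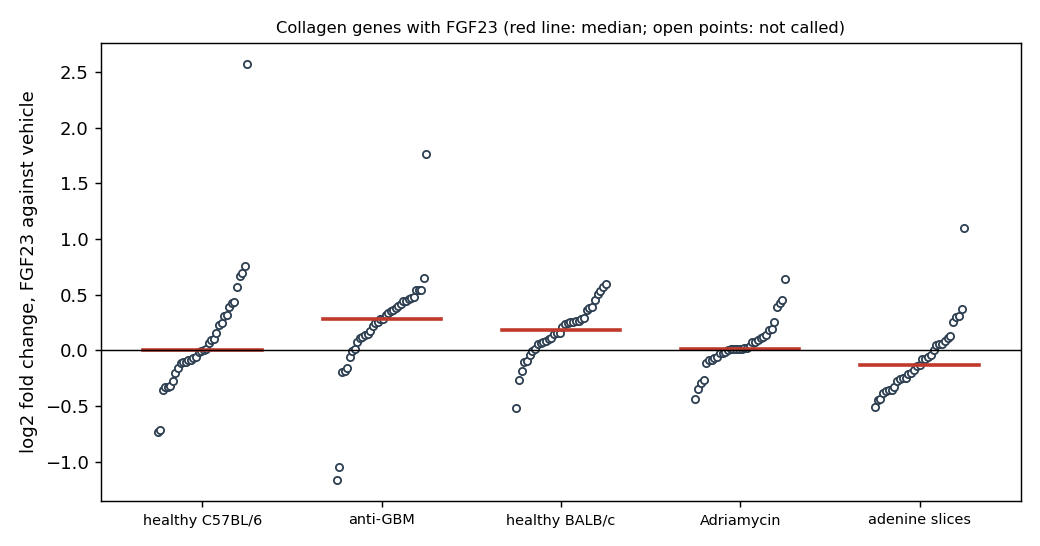
Log2 fold change with FGF23 against vehicle of each tested collagen gene (open points, sorted by value) in the 5 settings, with a line for the median. None of the points was called, and the medians are 0.00 in healthy C57BL/6, 0.28 in anti-GBM, 0.18 in healthy BALB/c, 0.01 in Adriamycin and −0.13 in adenine slices.

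Adriamycin nephropathy, examined in female BALB/c mice, gave a different picture. With vehicle, 1 of 34 tested members was called (2.94%), beside 0.331% of all 16020 tested genes, and the members' median log2 fold change was −0.17. Col1a1 was at 20.9, 28.1, 30.5 and 42.1 CPM in healthy and at 14.04, 15.09, 18.4 and 37.3 CPM in Adriamycin kidneys. The groups overlapped, and the log2 fold change of −0.51 ± 0.39 did not pass the test (adjusted p = 0.807). Col3a1 had a log2 fold change of −0.59 ± 0.43. Col4a1 had −0.11 ± 0.14, Col4a3 0.03 ± 0.08, Col4a4 0.09 ± 0.08, Col15a1 −0.33 ± 0.27 and Col18a1 0.10 ± 0.08, and none of these passed the test. In FGF23-treated mice 2 of 34 members were called (5.88%), beside 0.699% of all genes, and the median was −0.31. DESeq2 also called Col5a2, at −0.51 with vehicle (adjusted p = 0.0138) and −0.50 with FGF23 (adjusted p = 0.0131), for which edgeR gave an adjusted p of 0.11 and 0.0816.

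Col6a6, a rare alternative chain of collagen VI (chr9:105687809-105828160, minus strand), was the member called in both. With vehicle it was at 1.92, 2.16, 2.89 and 4.03 CPM in healthy and at 0.473, 0.561, 0.596 and 0.780 CPM in Adriamycin kidneys, a fall of 2.19 ± 0.28 on the log2 scale (adjusted p = 0.00371). With FGF23 it was at 2.86, 3.41, 3.45 and 4.76 CPM in healthy and at 0.660, 0.830, 0.964 and 1.33 CPM in Adriamycin kidneys, and fell by 1.93 ± 0.27 (adjusted p = 0.00258). No diseased library reached a healthy one in either comparison. Col12a1 was called with FGF23 and not with vehicle, but the interaction did not call it. With FGF23 it fell by 0.57 ± 0.11 on the log2 scale (adjusted p = 0.0238), from 12.1 to 15.07 CPM to 8.18 to 10.1 CPM. Its log2 fold change with vehicle was −0.17, and the call was lost in 5 of the fits that left out a library.

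Fat markers also differed between libraries, and their part in the collagen values was not tested. Adipoq, the adipocyte gene for adiponectin, exceeded 1 CPM in 12 of the 30 kidney libraries. These were 2 healthy vehicle and 3 healthy FGF23 libraries of the Adriamycin experiment, 1 Adriamycin FGF23 library, no Adriamycin vehicle library, and 6 libraries of the anti-GBM experiment. The 5 muscle and fat markers summed to 1.44 to 19.01 CPM in healthy BALB/c vehicle kidneys and to 0.645 to 0.872 CPM in Adriamycin vehicle kidneys. Without the 12 libraries Col6a6 stood at −1.75 with vehicle (adjusted p = 0.143) and at −2.32 with FGF23 (adjusted p = 0.0852), and no collagen gene was called in the Adriamycin experiment. Only 1 healthy FGF23 library of that experiment was then left, and it was assumed to vary like the other groups. In the anti-GBM experiment, 20 members were called with vehicle and 19 with FGF23 without these libraries. The share of all genes called in that fit is not given here, so these counts have no background beside them. The vehicle calls lost were Col4a3 (log2 fold change −0.45, adjusted p = 0.104), Col7a1, Col11a2, Col13a1 and Col19a1, and Col6a5 was called in addition (2.44, adjusted p = 0.0471).

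In the Adriamycin experiment with vehicle, 1 of 31 biosynthesis genes was called, beside 0.331% of all tested genes. It was the proteinase enhancer Pcolce2, which fell by 1.19 on the log2 scale (adjusted p = 0.049). No breakdown, receptor or fibril-associated gene was called. With FGF23 none was called in any of the 4 lists. Fibroblast and pericyte markers summed to 348.0 to 427.3 CPM in healthy and 333.2 to 443.8 CPM in Adriamycin vehicle kidneys. FGF23 against vehicle called no member in healthy BALB/c kidneys, where 0% of all genes were called and the median was 0.18. There 3 of 34 members had an unadjusted p below 0.05, beside 6.69% of all genes. It called none in Adriamycin kidneys either, where 0.0375% of all genes were called, and no member had an unadjusted p below 0.05, beside 5.69% of all genes. DESeq2 called no member in either. The interaction called no member by edgeR or DESeq2 and 0% of all genes by edgeR. In it 1 of 34 members had an unadjusted p below 0.05, beside 5.11% of all genes.

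The disease effect itself differed between the 2 kidney experiments. The anti-GBM effect minus the Adriamycin effect, both with vehicle and fitted over 30 libraries, was called for 24 of 38 tested members (63.2%), 21 higher and 3 lower. They include Col17a1, which did not pass the filter in the Adriamycin experiment alone. In the anti-GBM experiment it passed only through the diseased kidneys, so its place among the 24 is a description. Beside it, 31.4% of all 16954 tested genes were called, 15.7% higher and 15.7% lower, and the members' median difference was 1.17. Among the fibril and collagen VI genes the differences included those of Col1a1, at 2.96 ± 0.47 (adjusted p = 4.41e-05), Col3a1, at 2.83 ± 0.54 (adjusted p = 0.000326), Col1a2, at 2.18 ± 0.37 (adjusted p = 8.8e-05), and Col6a2, at 2.08 ± 0.41 (adjusted p = 0.000441). Col4a1 differed by 1.08, Col4a2 by 0.83, Col4a3 by −0.62 and Col4a4 by −0.54. Col20a1 (1.20, adjusted p = 0.00353) and Col27a1 (0.98, adjusted p = 0.0334) were called here though in neither disease comparison alone. Disease, its induction, strain and sex all differ between the experiments, and their parts in the difference cannot be told apart.

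In the slices, neither edgeR nor DESeq2 called any of 33 tested members with FGF23, and edgeR called 0% of all 15090 tested genes. The median log2 fold change of the members was −0.13, and 21 were negative. An unadjusted p below 0.05 was found for 4 of the 33, all of them lower, beside 4.89% of all genes. Col1a1 was at 561, 606, 714 and 844 CPM with vehicle and at 386, 545, 577 and 613 CPM with FGF23, with a log2 fold change of −0.36 ± 0.16 (adjusted p = 0.849). Col3a1 was at 934, 1015, 1196 and 1717 CPM with vehicle and at 651, 760, 1072 and 1089 CPM with FGF23, with a log2 fold change of −0.45. Both pairs of groups overlapped. The fibroblast and pericyte sums, 1398 to 1826 CPM with vehicle and 1364 to 1652 CPM with FGF23, overlapped as well. No gene of the biosynthesis, breakdown, receptor or fibril-associated lists was called by edgeR with FGF23 in the slices, or in any other comparison of FGF23 with vehicle.

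The makeup of the collagen RNA in the slices is set beside that of the kidneys without a test because strain, sex, disease, culture and scaling all differ. With scaling factors over all 38 libraries the mean summed level was 5668 CPM in vehicle slices and 5089 CPM in FGF23 slices. In anti-GBM kidneys it was 4205 CPM with vehicle and 5423 CPM with FGF23. The order of the FGF23 slices and the FGF23-treated anti-GBM kidneys thus depends on the scaling. Vehicle slices had a higher mean than both anti-GBM groups on either scaling. Col4a3 was at 152 to 199 CPM in vehicle slices and at 262 to 351 CPM in healthy C57BL/6 vehicle kidneys. The Col4a1 to Col4a3 count ratio was 6.93 ± 1.38 in vehicle slices, above the 3.37 of anti-GBM and the 1.11 of healthy BALB/c kidneys, and the Col1a1 to Col1a2 ratio was 1.60 ± 0.159. Col12a1 stood at 258 ± 79.6 CPM in vehicle slices and at 8.48 ± 2.52 and 10.96 ± 1.21 CPM in the healthy C57BL/6 and BALB/c kidneys. The Col4a5 to Col4a6 ratio was 4.93 ± 0.39 in vehicle slices, 21.2 ± 3.05 in healthy C57BL/6 vehicle kidneys and 192 ± 38.4 in healthy BALB/c vehicle kidneys. Col4a6 had at most 17 counts in any library of the Adriamycin experiment, so the BALB/c ratio rests on few counts and its size is uncertain.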

How the data were processed

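Counts per gene in 38 libraries were used as the authors deposited them, as whole-number counts that were not normalized. Per the labels and the study's methods, the authors made them with bcl2fastq 2.20.0, STAR 2.7.9a and featureCounts 1.5.1 on mouse build GRCm38 with Ensembl genes, and checked reads with FastQC 0.11.8. Of 55487 gene IDs 55141 had a symbol in the table. Slice columns were matched to samples by name. Kidney columns were tied to groups by headers in the study's supplementary tables, not by the public labels, so replicate numbers could not be given to single kidney columns. Replicates are separate samples per the labels. Every replicate pair of a group differed by more than sampling noise (chi-square over its degrees of freedom at least 2.02). The closest pairs were FGF23 slices 2 and 4 (2.02) and vehicle slices 1 and 3 (2.91), against 5.98 for the closest kidney pair. The study calls its slice replicates biologically independent, and why these pairs lie closer was not tested.

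Each experiment was fitted alone over all its groups in R 4.3.3 with edgeR 4.0.16 (TMM, a low-count filter with a minimum count of 10, quasi-likelihood test), with Benjamini-Hochberg adjustment over all tested genes. A fit over the 30 kidney libraries tested the difference between disease effects. Levels in CPM and log2 fold changes were computed from the deposited counts. DESeq2 1.42.0, other filters and scalings, and leaving out libraries were alternatives. The procedure was tested on simulated data. Sequences and positions come from RefSeq and GENCODE tables of GRCm38. The members, classes and lists were chosen with earlier results of these data known. All members called in any comparison were named, with the 11 collagens of main interest, and at most 3 called genes per list and direction. Col24a1, Sox9, Hapln1, Adipoq and other genes outside that rule were named after their values were seen. Intervals cover counting error only.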

Additional observations from a re-analysis of the deposited data

Results flagged for a closer look

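Single libraries stood far from the other 3 of their group, by Dixon's 95% criterion, in 9 of 232 groups of 4 examined over 29 named collagen genes. Chance alone marks about 1 group in 20. In healthy C57BL/6 vehicle kidneys, NTS3 had 28.9 CPM of Col6a2 (17.5 to 18.9 in the others) and 1.60 CPM of Col13a1 (1.39 to 1.43). In anti-GBM vehicle kidneys, NTS6 had 77.0 CPM of Col14a1 (95.1 to 98.0 in the others). In the Adriamycin experiment, Ad6 had 0.689 CPM of Col11a2 (1.33 to 1.37) and Ad12 had 0.424 CPM of Col17a1 (0.270 to 0.286). Col17a1 did not pass the filter there and had at most 10 counts in a library, so its flag rests on few counts. Among the FGF23 slices, slice 3 had 248 CPM of Col1a2 (420 to 450) and 9.09 CPM of Col17a1 (4.57 to 5.09), and slice 1 had 991 CPM of Col18a1 (736 to 761). Slice 3 was also flagged for Col19a1, at 0.0865 CPM (0 in the others), which is only 1 count of a gene that did not pass the filter in the slices.

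The effect of anti-GBM disease differed from that of Adriamycin, by the test of the difference itself, for 24 collagen genes. For the fibril genes the log2 difference was 2.96 for Col1a1, 2.18 for Col1a2, 2.83 for Col3a1, 1.53 for Col5a1, 1.08 for Col5a2, 2.11 for Col5a3 and 0.98 for Col27a1. For collagen VI it was 1.69 for Col6a1, 2.08 for Col6a2 and 1.19 for Col6a3. Among the network and basement membrane genes it was 1.08 for Col4a1, 0.83 for Col4a2, −0.62 for Col4a3, −0.54 for Col4a4, 1.40 for Col8a1, 2.12 for Col8a2, 1.51 for Col15a1 and 1.15 for Col18a1. Among the FACIT genes it was 1.71 for Col12a1, 1.45 for Col16a1, −2.60 for Col19a1 and 1.20 for Col20a1. For the transmembrane genes it was 1.05 for Col13a1 and 7.48 for Col17a1. That gene passed the filter only through anti-GBM kidneys, so its value is a description, and it depends on the prior count because healthy kidneys held few counts. Strain, sex and disease cannot be told apart in these differences.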

How the results depend on the processing

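Under the alternatives, none of the 71 called gene results reversed: 576 of 606 values stayed past the threshold and 30 did not. Of the fits that left out a library, these values hold only those with the lowest and highest log2 fold change of each gene. The setting with a minimum fold change is not among them. The 71 results include those of Col17a1, which passed the filter in the anti-GBM experiment only through the diseased kidneys. Its part of the tally is a description and no support for stability. Over all fits that left out a library, single calls were lost more often. For the difference between diseases, Col19a1 lost its call in 11 of 30 fits and Col6a3 in 9. With DESeq2, 1 collagen gene was called with FGF23 in anti-GBM kidneys (155 of all genes, against 38 by edgeR) and 2 with Adriamycin and vehicle (151 against 53). For Adriamycin with FGF23, 1 gene was left by a fit of only the groups compared (43 of all genes) and by asking for an absolute log2 fold change above 1 (31 against 112). Leaving out 1 library gave 23 to 27 calls for anti-GBM disease with vehicle (4978 to 6299 of all genes) and 18 to 21 with FGF23 (2888 to 4770). The difference between diseases had 21 to 25 (4612 to 5606 of all genes). Adriamycin with vehicle had 1 (10 to 100 of all genes). Adriamycin with FGF23 had 1 to 3 (21 to 119), with 1 without Ad9, Ad11, Ad13, Ad14 or Ad15 and 3 without Ad12. Elsewhere the number was 0. These fits cost Col13a1 and Col8a2 their call in anti-GBM mice given FGF23, and Col6a3, Col13a1, Col19a1 and Col27a1 theirs in the difference between diseases.

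Without the 12 libraries with Adipoq above 1 CPM, an alternative chosen after seeing the data, 0 collagen genes were called for Adriamycin with vehicle (4 of all genes) and 0 with FGF23 (5 of all genes). That fit has fewer libraries. The cause of the other changes was not tested. With TMM over all 38 libraries the mean summed level was 2319 and 2196 CPM in healthy C57BL/6 kidneys with vehicle and FGF23, 5668 and 5089 CPM in the slices, and 4205 and 5423 CPM in anti-GBM kidneys.

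The replicate block gave 0 calls in the slices, as did the fit without it. Same-numbered slices correlated at 0.107, 0.105, −0.105 and 0.112. For replicates 1, 2 and 4 this was above the highest correlation with another number (0.00109, 0.0482 and 0.0778). Replicate 3 correlated better with another number (0.124). All these correlations are low, so the main fit did not take the numbers as pairs, and whether they are pairs stays uncertain. The kidney libraries came from separate mice, and their columns carry no replicate number, so the kidneys were fitted without a block. Genes with few counts, such as Col11a2, Col17a1 and Col19a1, have the widest errors.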
